A study of Mus musculus with 11 samples.

Results

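Group 2 innate lymphoid cells (ILC2s) carry receptors for transmitters that nerves and damaged cells release, and 8 such receptor genes are described here among the 27179 genes of the count table. They were chosen by transmitter, by a rule that uses none of their values but was written with earlier results of these data known: Nmur1 for neuromedin U, Vipr1 and Vipr2 for vasoactive intestinal peptide (VIP), Adora2a and Adora2b for adenosine, Gabbr1 for gamma-aminobutyric acid (GABA), Chrna7 for acetylcholine and Htr1b for serotonin. All 8 were found by Entrez Gene ID, and 7 of the 8 passed the filter on low counts. Chrna7 did not.

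The cells were ILC2s sorted from the large intestine of WT C57BL/6 mice and held for 3 h in culture. IL-2 and IL-7, each at 100 ng/ml, were in every culture, controls included. Cultures with vehicle alone (n = 3) were compared with ADM2 at 0.4 µg/ml (n = 3), with IL-25 at 100 ng/ml (n = 3), and with the combination at those doses (n = 2, replicates 2 and 3). ADM2 (adrenomedullin 2) is a hormone related to calcitonin gene-related peptide, and IL-25 is an epithelial cytokine that activates ILC2s. The labels give neither the age of the mice nor whether each replicate had its own mouse. The p-values therefore cover the spread between these libraries, which may be technical.

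Neuromedin U, made by enteric neurons, is a known activator of mouse ILC2s through NMUR1, a receptor that raises calcium through Gq. VIP receptors and both adenosine A2 receptors act mainly through Gs, which raises cyclic AMP, the pathway that receptors of the ADM2 family also use. GABBR1 is the GABA-binding subunit of the GABA-B receptor and needs GABBR2 to signal, CHRNA7 forms a cation channel, and HTR1B lowers cyclic AMP through Gi.

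The promoters of Nmur1 and Gabbr1 are shown because these were the receptors that fell with IL-25. RefSeq has 2 starts for Nmur1, and the outer one is used, since the window before the other lies inside the gene. The 250 bases before that start and before the start of Gabbr1 are shown 5' to 3' on the gene's strand, from RefSeq on GRCm38.p6 (mm10), with CG dinucleotides in capitals. The Nmur1 window is chr1:86389362-86389611 on the minus strand, and it lies in an intron of a longer GENCODE model of Nmur1 with no exon over it. The Gabbr1 window is chr17:37045716-37045965 on the plus strand, with no annotated gene over it.
Nmur1: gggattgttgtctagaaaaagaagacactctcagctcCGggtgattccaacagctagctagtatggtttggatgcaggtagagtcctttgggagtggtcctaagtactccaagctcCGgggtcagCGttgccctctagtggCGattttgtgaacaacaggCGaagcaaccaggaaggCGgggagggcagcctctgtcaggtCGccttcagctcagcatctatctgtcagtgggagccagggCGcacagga
Gabbr1: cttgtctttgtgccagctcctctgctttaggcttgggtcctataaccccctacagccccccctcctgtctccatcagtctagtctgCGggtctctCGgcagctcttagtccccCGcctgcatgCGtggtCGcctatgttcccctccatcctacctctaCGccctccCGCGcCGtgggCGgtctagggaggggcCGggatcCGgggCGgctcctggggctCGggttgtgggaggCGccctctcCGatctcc
The Nmur1 window was 55.2% G+C with 8 CG dinucleotides, and the Gabbr1 window was 66.0% G+C with 16, against medians of 52.4% and 6 over 32851 promoters. Neither printed window held any of 5 motifs searched on either strand. The window before the second Nmur1 start (chr1:86388142-86388391) held GATAA at base -132 from that start. The cyclic AMP response element, TGACGTCA, stood in 1.55% of all promoter windows of that length. Its shorter form, which lies within it, is TGACG and stood in 17.8%. The AP-1 motif was searched as TGANTCA and stood in 6.75%. The GATA motif was searched as GATAA and stood in 22.6%. The kappaB motif stood in 3.9%. The promoter table matched 7 of the 8 receptors, and Adora2a was the one it did not match.

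All 12 ILC2 markers, Gata3, Il1rl1, Il17rb, Il5 and Il13 among them, were detected in every library. The 7 T cell markers summed to 7.60 to 13.5 CPM (normalised counts scaled to library size). Of the enteric neuron markers, Elavl4 was at 0 to 1.29 CPM, Tubb3 at 0 to 0.622 and Uchl1 at 2.37 to 7.59. Epithelial markers (4 genes, mostly Epcam, which was the 1 of 4 called) summed to 158 to 188 CPM in vehicle, 80.3 to 88.9 in ADM2, 142 to 168 in IL-25 and 65.8 to 86.0 in IL-25 plus ADM2. Endothelial markers (2 genes, mostly Pecam1, which was the 1 of 2 called) summed to 121 to 125, 98.3 to 99.5, 270 to 353 and 250 to 273 CPM in the same order, and Cdh5 stayed at 2.04 to 8.97. Vil1 was at 0 in 3 libraries. The 4 fibroblast markers summed to 57.6 to 113 CPM and the 5 B cell markers to 25.5 to 69.4 CPM, with overlapping ranges in all 4 groups. The part of these cells in the results below was not tested. Total counts ran from 25809256 to 35445351 per library, and a count of 3 corresponded to 0.0811 to 0.123 CPM, which covers counting error only.

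Adora2a, which encodes the adenosine receptor of higher affinity (Entrez 11540, chr10:75316877-75334792), was the most abundant of the 8 and rose with ADM2 in both settings. It stood at 227, 227 and 230 CPM in vehicle, 489, 458 and 466 with ADM2, 292, 315 and 335 with IL-25, and 539 and 547 with both. No 2 groups overlapped, and the order was vehicle, IL-25, ADM2, then IL-25 plus ADM2. Group means were 228 ± 1.78, 471 ± 16.0 and 314 ± 21.8 CPM (SD, n = 3 each) and 543 ± 5.75 (n = 2).

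ADM2 alone raised Adora2a 2.06-fold over vehicle (log2 fold change 1.04 ± 0.08 SE, adjusted p = 5.03e-07 in edgeR's quasi-likelihood test). IL-25 alone raised it 1.37-fold (0.46 ± 0.08, edgeR adjusted p = 0.000701). Adding ADM2 to IL-25 raised it 1.73-fold (0.79 ± 0.09, edgeR adjusted p = 2.78e-05), and the double treatment stood 2.38-fold above vehicle (1.25 ± 0.09, edgeR adjusted p = 1.49e-07). Adding IL-25 to ADM2 gave a log2 difference of 0.21 ± 0.09 that was not called (edgeR adjusted p = 0.182). The ADM2 effect with IL-25 minus that without it was -0.25 ± 0.12 on the log2 scale (edgeR adjusted p = 0.721). The comparisons share control libraries, so they are not independent of each other.

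**Figure D1:**
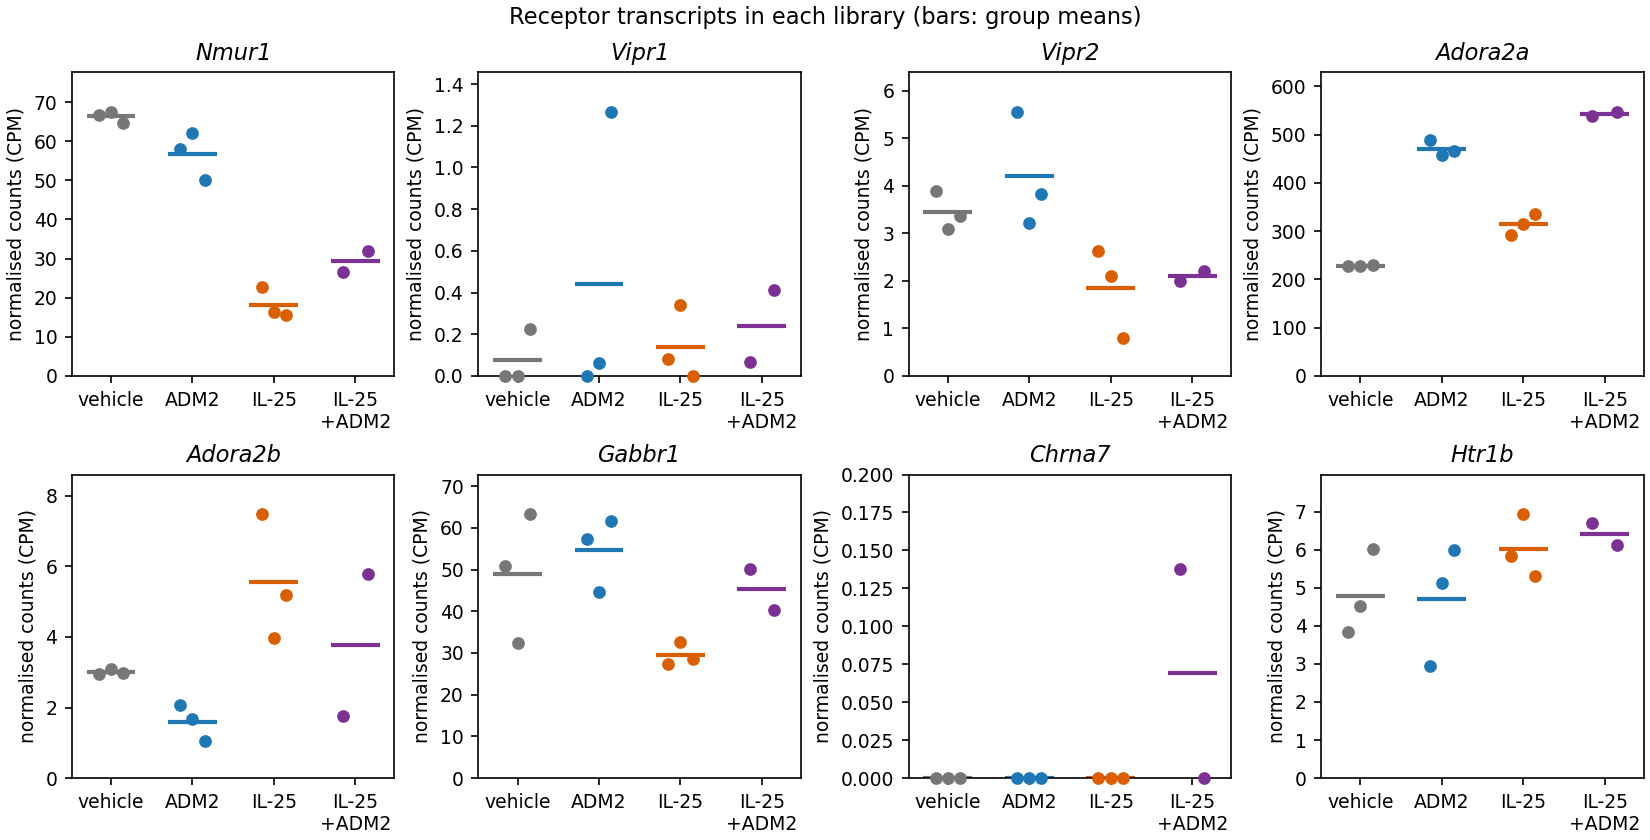
Normalised counts (CPM, y axis, each panel from 0) of the 8 receptor genes in each of the 11 libraries, by group on the x axis, with points for libraries and bars for group means. Adora2a sits highest with IL-25 plus ADM2 at 539 and 547 CPM, and Nmur1 lowest with IL-25 at 15.6 to 22.6 CPM.

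Nmur1, the neuromedin U receptor (Entrez 14767, chr1:86386242-86389361), fell with IL-25 and was higher with IL-25 plus ADM2 than with IL-25 alone. It stood at 66.8, 67.5 and 64.7 CPM in vehicle, 57.9, 62.1 and 49.95 with ADM2, 22.6, 16.3 and 15.6 with IL-25, and 26.6 and 31.9 with both. The IL-25 libraries were below every other library, and the IL-25 plus ADM2 libraries lay between them and the ADM2 libraries. Means were 66.3 ± 1.46, 56.6 ± 6.17 and 18.2 ± 3.88 CPM (SD, n = 3 each) and 29.3 ± 3.73 (n = 2). In bulk RNA, fewer cells that carry a transcript and less of it per cell cannot be told apart.

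IL-25 lowered Nmur1 3.66-fold against vehicle (log2 -1.87 ± 0.15, edgeR adjusted p = 5.99e-07). Against IL-25 alone, IL-25 plus ADM2 was 1.62-fold higher (0.69 ± 0.16, edgeR adjusted p = 0.00808), and this passed the threshold only while replicate 3 of the double treatment was kept (0.56 and edgeR adjusted p = 0.107 without it). The double treatment was 1.93-fold lower than ADM2 alone (-0.95 ± 0.16, edgeR adjusted p = 0.00132) and 2.26-fold lower than vehicle (-1.18 ± 0.16, edgeR adjusted p = 0.000108). ADM2 alone gave -0.23 ± 0.14, which was not called (edgeR adjusted p = 0.342).

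Gabbr1, the GABA-binding subunit (Entrez 54393, chr17:37045966-37074305), fell with IL-25, with more spread between vehicle libraries than for the other abundant receptors. Its values were 50.8, 32.5 and 63.3 CPM in vehicle, 57.4, 44.6 and 61.7 with ADM2, 27.3, 32.7 and 28.5 with IL-25, and 50.2 and 40.2 with both. Vehicle replicate 2 lay just under the highest IL-25 library, so these groups overlapped. The fall was 1.66-fold (log2 -0.73 ± 0.20, edgeR adjusted p = 0.0149). Leaving out vehicle replicate 3 ended that call (edgeR adjusted p = 0.075), as did leaving out replicate 1 or 3 of the IL-25 group (0.0535 and 0.0522).

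Adding ADM2 to IL-25 gave Gabbr1 a log2 difference of 0.62 ± 0.22 that was not called (edgeR adjusted p = 0.0761). It was called under 6 of 19 alternatives, where adjusted p was 0.0123 to 0.0492, and without vehicle replicate 2 or vehicle replicate 3 it was 0.0133 and 0.0393. Against vehicle, ADM2 alone gave 0.16 (edgeR adjusted p = 0.691), or -0.10 without vehicle replicate 2. The double treatment gave -0.11 (edgeR adjusted p = 0.793), or 0.12 without vehicle replicate 3 and 0.04 without replicate 3 of its own group. Gabbr2, the partner subunit, was at 0 in every library.

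**Figure D2:**
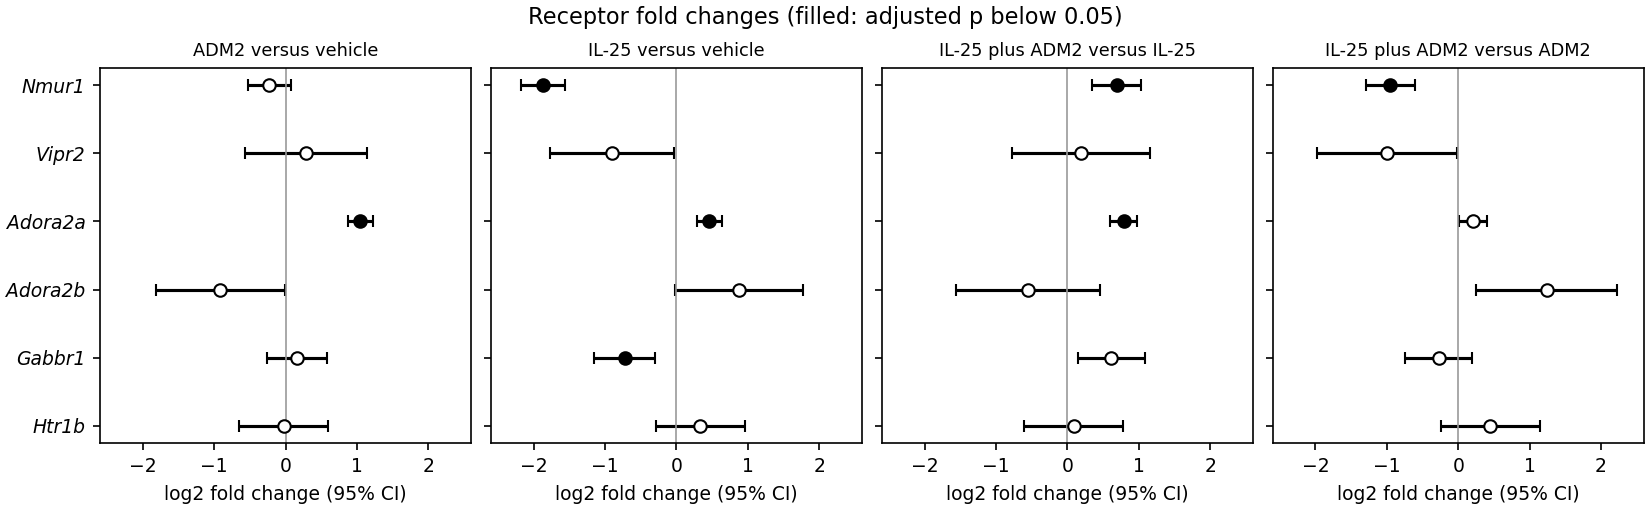
Log2 fold changes (x axis) with 95% confidence intervals for the 6 receptors with usable levels, in 4 comparisons; filled points passed an adjusted p of 0.05. Nmur1 is furthest left with IL-25 at -1.87, and Adora2a is right of 0 in both ADM2 comparisons at 1.04 and 0.79.

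Of the other 5 receptors Chrna7 was not tested, and none of the rest was called in any comparison by edgeR or DESeq2. Vipr2 and Adora2b each had 2 comparisons against single treatments or vehicle at an unadjusted p under 0.05 in edgeR. Adora2b, the adenosine receptor that needs more of its ligand, was at 2.96, 3.08 and 2.99 CPM in vehicle, 2.07, 1.67 and 1.05 with ADM2, 7.47, 3.96 and 5.19 with IL-25, and 1.76 and 5.78 with both. Every ADM2 library was below and every IL-25 library above the vehicle libraries. The log2 differences from vehicle were -0.92 ± 0.42 with ADM2 (edgeR adjusted p = 0.184) and 0.88 ± 0.42 with IL-25 (edgeR adjusted p = 0.155). The 2 libraries with both agents were far apart, and IL-25 plus ADM2 against ADM2 (1.24 ± 0.46, edgeR adjusted p = 0.112) was called only with replicate 2 of the double treatment left out (1.86, edgeR adjusted p = 0.0243).

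Vipr2, the second VIP receptor, was at 3.90, 3.08 and 3.36 CPM in vehicle, 5.55, 3.22 and 3.83 with ADM2, 2.63, 2.10 and 0.803 with IL-25, and 2.00 and 2.20 with both. The 5 libraries with IL-25 were all below the 6 without it. The log2 difference with IL-25 was -0.91 ± 0.41, with a 95% interval of -1.77 to -0.04 (edgeR adjusted p = 0.129). The gene overlaps Gm46383 and Gm20658, and whether counting used strand is not given in the sources used here.

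Htr1b, a serotonin receptor that overlaps D430036J16Rik, ranged from 2.94 to 6.93 CPM. The vehicle, ADM2 and IL-25 libraries overlapped, and the 2 libraries with both agents lay within the IL-25 range. The ADM2 difference from vehicle was -0.03, with a 95% interval of -0.65 to 0.59 (edgeR adjusted p = 0.973). That value was 0.13 without vehicle replicate 3 and 0.22 without ADM2 replicate 1. Vipr1 had 0 counts in 4 libraries and at most 12 in the other libraries except ADM2 replicate 3, which had 46. Chrna7 had 0 counts in 10 of 11 libraries and 4 in IL-25 plus ADM2 replicate 2. At this depth neither gene could be compared between groups.

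Per kilobase of exon, Adora2a (88.0 CPM per kb in vehicle) stood above Nmur1 (43.1), Gabbr1 (7.40), Adora2b (1.63), Vipr2 (1.02) and Htr1b (1.01). Vipr2 and Htr1b did not differ beyond their spread (SD 0.12 and 0.24). With IL-25 the order of the leading receptors stayed the same, at 121, 11.8 and 4.46 CPM per kb. The ratio of Adora2a to Nmur1 per kilobase was 2.04 ± 0.061 in vehicle, 4.97 ± 0.58 with ADM2, 10.6 ± 2.66 with IL-25 (SD, n = 3 each) and 11.1 ± 1.29 with both (n = 2). The last pair did not differ beyond its spread.

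**Figure D3:**
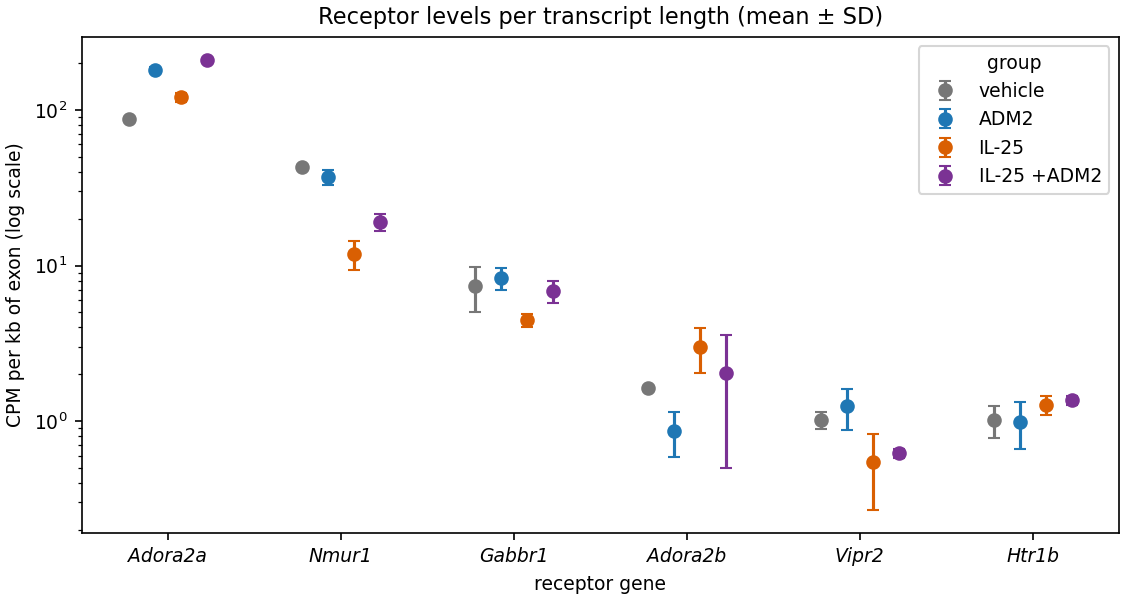
Level per kilobase of exon (CPM per kb, log y axis) of the receptors, by group, as mean ± SD. Adora2a is highest in all 4 groups, at 88.0 CPM per kb in vehicle, and the gap to Nmur1 is widest in the groups with IL-25.

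Counted over the 7 receptors tested, 1 rose with ADM2 (Adora2a), where 14.8% of all 15028 genes were called (7.39% higher and 7.43% lower). With IL-25, 1 rose and 2 fell, where 23.3% of all genes were called (13% higher and 10.4% lower). When ADM2 was added to IL-25, 2 rose (Nmur1 and Adora2a), where 14.6% were called (6.53% higher and 8.1% lower). Adding IL-25 to ADM2 lowered 1 (10.8% of all genes called, 6.17% higher and 4.68% lower), and the double treatment against vehicle moved 1 up and 1 down (20.2% of all genes called, 10.6% higher and 9.64% lower). The difference of the ADM2 effect gave no call among them (edgeR), where 0.0333% of genes were called (0.0133% higher and 0.02% lower; 5 genes, and 1028 at an unadjusted p under 0.05). In edgeR 1 receptor (Nmur1) had an unadjusted p under 0.05 for this difference, and 1 was called under DESeq2. The single call with ADM2 is close to the background share, and the other counts rest on 1 to 3 genes. The median log2 change over the 7 was 0.16, 0.33 and 0.62 in the first 3 comparisons, against -0.0058, 0.00046 and -0.011 over all genes. The 7 include Vipr1, at 2.49, 0.85 and 0.77 on too few counts to compare. These medians therefore do not show a shift of the receptors as a set.

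**Figure D4:**
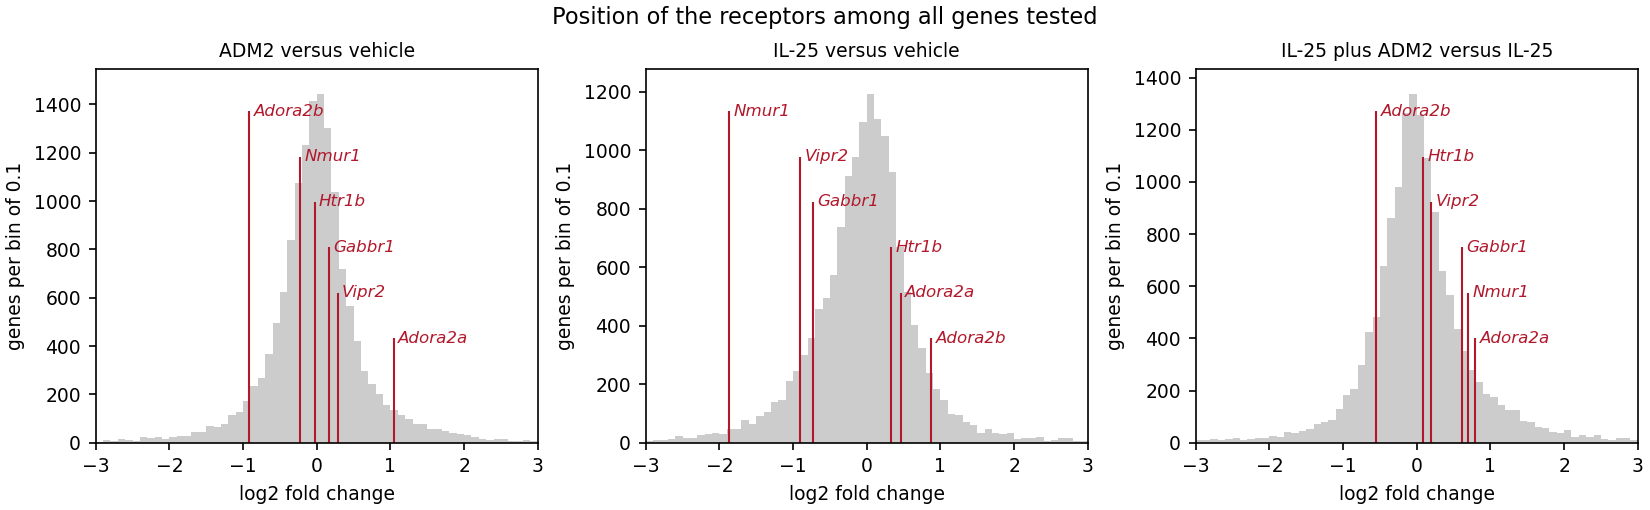
Histograms of the log2 fold changes (x axis) of all 15028 genes tested, with the number of genes on the y axis, in 3 comparisons, and lines for 6 receptors. Nmur1 lies in the left tail with IL-25 at -1.87, and Adora2a lies right of centre in each panel.

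Genes of the adenosine system changed in both directions. Of 14 such genes fixed as a list, the receptors included, 12 were tested; 4 rose and 1 fell with ADM2, 3 rose and 1 fell with IL-25, and 2 rose and 2 fell when ADM2 was added to IL-25. Adora2a is among those that rose each time, and over all genes 14.8%, 23.3% and 14.6% were called. Medians of the list were 0.32, 0.39 and 0.20 on the log2 scale. Slc29a1, a transporter that takes adenosine into cells, was at 43.2, 43.5 and 47.5 CPM in vehicle, 16.1, 19.7 and 21.5 with ADM2, 79.7, 83.6 and 88.8 with IL-25, and 28.9 and 31.5 with both. It fell 2.35-fold with ADM2 (log2 -1.23, edgeR adjusted p = 3.86e-06), rose 1.88-fold with IL-25 (0.91, edgeR adjusted p = 4.5e-05) and fell 2.78-fold when ADM2 was added to IL-25 (-1.48, edgeR adjusted p = 4.86e-06).

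Nt5e, the ectoenzyme CD73 that makes adenosine from AMP, moved the other way. It was at 83.1, 80.0 and 63.6 CPM in vehicle, 117, 139 and 136 with ADM2, 29.7, 27.1 and 17.1 with IL-25, and 54.1 and 51.5 with both. It rose 1.73-fold with ADM2 (0.79, edgeR adjusted p = 0.00373), fell 3.07-fold with IL-25 (-1.62, edgeR adjusted p = 8.49e-06) and rose 2.15-fold when ADM2 was added to IL-25 (1.10, edgeR adjusted p = 0.000825). No groups overlapped for either gene. Entpd1, the ectoenzyme CD39 that feeds CD73, rose with ADM2 from a mean of 3.29 ± 0.50 CPM to 6.44 ± 0.42 (SD, n = 3 each), a log2 change of 0.97 (edgeR adjusted p = 0.0197). Leaving out replicate 1 or 3 of vehicle ended that call (0.0729 and 0.0982), as did replicate 2 or 3 of ADM2 (0.0648 and 0.0504). Entpd1 overlaps Gm16027, Gm8783 and Gm41846.

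Of 15 P2 receptor genes, 9 were tested, with 1 higher and 2 lower with ADM2, 1 and 1 with IL-25, and 1 and 2 when ADM2 was added to IL-25. Over all genes 14.8%, 23.3% and 14.6% were called, so the count with IL-25 is close to the background. The gene that rose with ADM2 was P2ry10, which despite its name is known as a receptor for lysophosphatidylserine. It was at 130, 164 and 152 CPM in vehicle, 474, 481 and 425 with ADM2, 132, 111 and 112 with IL-25, and 319 and 339 with both. ADM2 raised it 3.09-fold without IL-25 (1.63, edgeR adjusted p = 1.33e-07) and 2.78-fold with it (1.48, edgeR adjusted p = 1.26e-06). P2ry10 was also the gene lower with IL-25 (edgeR adjusted p = 0.0338), though the vehicle and IL-25 libraries overlapped. Leaving out replicate 2 or 3 of vehicle or of IL-25 ended that call (0.0734 to 0.12). P2ry2, a receptor for ATP and UTP, fell with ADM2 from a mean of 8.48 ± 0.96 CPM to 3.36 ± 0.59 (SD, n = 3 each), by a log2 change of -1.33 (edgeR adjusted p = 0.000276), and rose with IL-25 to 16.1 ± 1.76 (0.93, edgeR adjusted p = 0.00276). P2ry1, a receptor for ADP, fell with ADM2 by a log2 change of -0.91 (edgeR adjusted p = 0.0352), and leaving out replicate 1 or 2 of vehicle or of ADM2 ended that call (0.0551 to 0.136).

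Of 20 GABA genes, 9 were at 0 in every library and 7 were tested, with Gad1 higher with ADM2 and Gabbr1 lower with IL-25. Of all genes, 14.8% were called with ADM2 and 23.3% with IL-25, so 1 call among 7 is not above either share. Gad1, which makes GABA from glutamate, was at 0.455, 0.162 and 0.987 CPM in vehicle, 5.16, 5.25 and 6.20 with ADM2, 0.862, 1.79 and 0.927 with IL-25, and 10.6 and 10.4 with both. Every library with ADM2 was above every library without it. The fitted rise was 10.3-fold without IL-25 (3.36 ± 0.50, edgeR adjusted p = 0.000244) and 8.76-fold with it (3.13 ± 0.51, edgeR adjusted p = 0.000658). Gad1 overlaps the antisense gene Gad1os.

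Of 18 serotonin genes, 7 were tested and 1 was called. The shares over all genes were 14.8% with ADM2, 23.3% with IL-25 and 14.6% when ADM2 was added to IL-25. That count is not above those shares. The gene called was Tph1, the enzyme that starts serotonin synthesis outside neurons. It was at 87.8, 101 and 92.6 CPM in vehicle, 53.3, 56.8 and 56.8 with ADM2, 408, 349 and 350 with IL-25, and 235 and 238 with both. IL-25 raised it 3.94-fold (1.98, edgeR adjusted p = 5.1e-09). ADM2 lowered it 1.68-fold without IL-25 (-0.75, edgeR adjusted p = 5.44e-05) and 1.56-fold with it (-0.64, edgeR adjusted p = 0.000708).

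Of 27 cholinergic genes, 9 were tested and 1 was called. Among all genes 14.8% were called with ADM2 and 14.6% when ADM2 was added to IL-25, so this count is not above background. The gene called was Chrne, a muscle-type nicotinic subunit that overlaps 4930544D05Rik. It rose from 4.59 ± 1.40 CPM with IL-25 (SD, n = 3) to 14.6 ± 3.36 with both (n = 2), a log2 change of 1.67 (edgeR adjusted p = 0.000626). Its rise with ADM2 alone was 0.79 (edgeR adjusted p = 0.0408). Leaving out 1 library at a time ended that call for 6 libraries, every vehicle and ADM2 library except vehicle replicate 2, and replicate 3 of the double treatment (0.0507 to 0.171). Of 9 neuromedin U and VIP genes, 4 were tested, and Nmur1 was the one called, with Nmu itself at 0 in every library. Background shares were 23.3% with IL-25 and 14.6% when ADM2 was added to IL-25, and 1 call among 4 is too few to set against them. Of 36 other catecholamine, histamine and neuropeptide receptors, 9 were tested, and 1 was lower with ADM2. When ADM2 was added to IL-25, 1 was higher and 2 were lower. The shares over all genes were 14.8% and 14.6%. Hrh2, a histamine receptor that overlaps Gm16578, fell with ADM2 from 4.66 to 1.80 CPM (-1.37, edgeR adjusted p = 0.0147). Without replicate 1 of vehicle or replicate 3 of ADM2 it was not called (0.0681 and 0.0504). It also fell from 9.17 to 2.82 CPM when ADM2 was added to IL-25 (edgeR adjusted p = 0.0101), a call lost without replicate 2 of the double treatment. In that comparison Adra1b was lower (edgeR adjusted p = 0.0352) and Drd1 higher (edgeR adjusted p = 0.0442), with means below 1 CPM in every group. Adra1b had at most 2 counts in a library with both agents, and Drd1 had 0 counts in every IL-25 library. Both calls were lost without some single libraries. These included IL-25 replicate 2 for Adra1b (edgeR adjusted p = 0.104) and any IL-25 library for Drd1 (0.0846 to 0.0977).

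**Figure D5:**
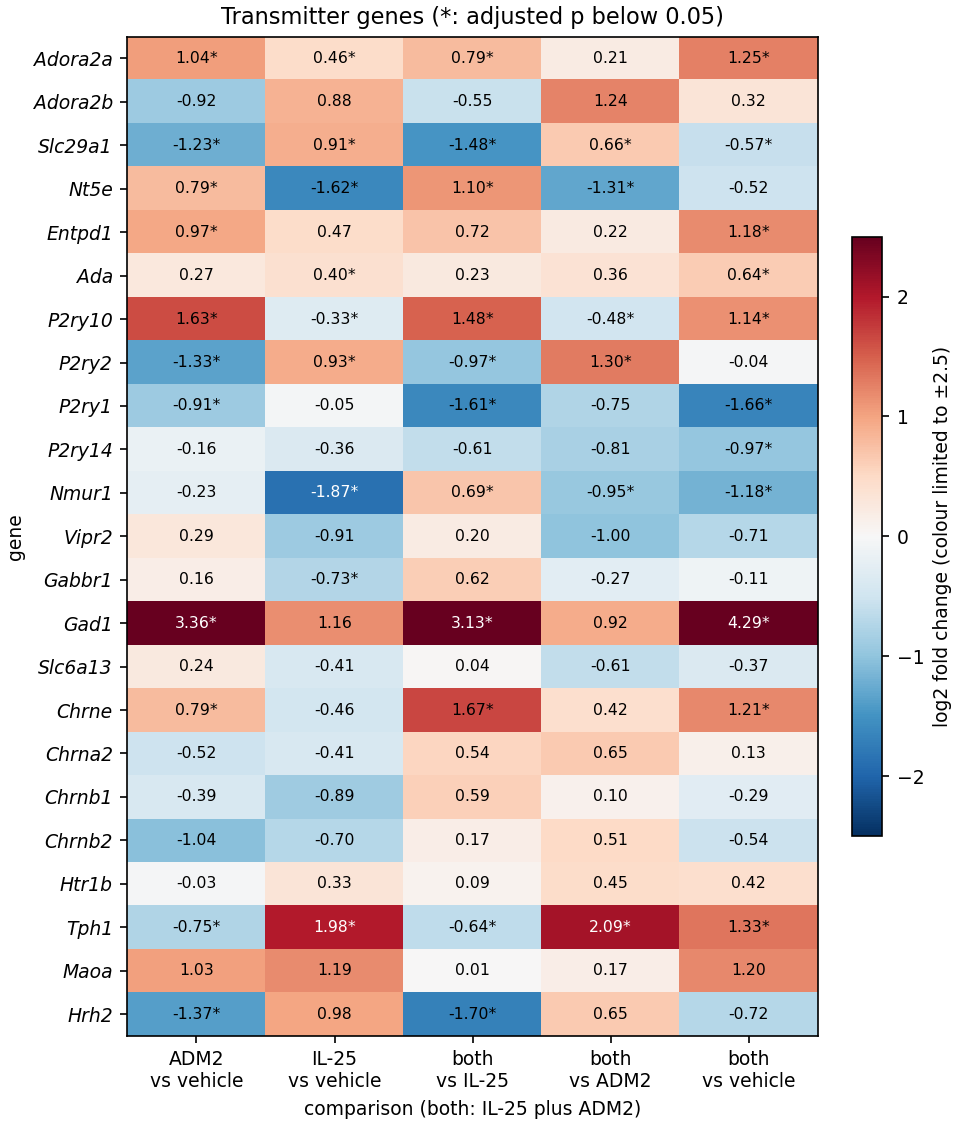
Heat map of log2 fold changes of the receptors and the named transmitter genes with a mean of at least 2 CPM (rows) in the comparisons (columns), with the colour scale limited at 2.5 and a star for an adjusted p below 0.05. Slc29a1 and Nt5e have opposite colours in the ADM2 columns, at -1.23 and 0.79 without IL-25.

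As a description over the 11 libraries, which share group differences, the genes whose log2 CPM followed Nmur1 most closely were S1pr4, Evi2b and Mllt3 (Pearson r of 0.988, 0.988 and 0.984). For Adora2a they included Hs3st1 and Actg1 (0.996 and 0.989), and for Gabbr1 they were Krba1, Map4k2 and Rbfox2 (0.935, 0.934 and 0.933). The best matches were Gcdh for Vipr2 (0.949), Slc35b2 for Adora2b (0.969) and Ppm1d for Htr1b (0.828).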

How the data were processed

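RNA of 11 cultures was sequenced as 150 bp paired-end reads, per the labels' protocols. The authors deposited raw counts per gene, keyed by Entrez Gene ID. The submitters' processing notes name featureCounts, limma and mm10. The aligner, annotation release, strand setting and mate counting are not given in sources used here. Among counts of 1 to 20, 69.0% to 72.0% per library were even. Symbols and positions came from RefSeq (GRCm38.p6; 25275 IDs matched, 1904 not), and exon lengths from GENCODE.

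edgeR 4.0.16 (R 4.3.3) compared the counts with TMM scaling, a filterByExpr minimum count of 10 (15028 genes kept) and quasi-likelihood F tests, with 1 mean per group over all 11 libraries. Genes with a Benjamini-Hochberg adjusted p below 0.05 were called. CPM used TMM-scaled library sizes. Each SE was computed as |log2 fold change| over the root of F. The test was run on counts simulated from its own model, which checks the code and cannot show whether that model suits these data. Same-group libraries differed beyond sampling noise (chi-square per degree of freedom 15.6 to 52.5).

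The receptors and lists were chosen with earlier results of these data known. Named genes were the 8 receptors, at most 4 other genes per list (those called in the most comparisons, then the highest mean CPM), and the 3 best-correlated genes per receptor among those averaging 2 log2 CPM or more. Not every gene so chosen is reported here. The alternatives tried were DESeq2 1.42.0, limma voom 3.58.1, other scalings and filters, only the groups compared, a replicate block, and each library left out.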

Additional observations from a re-analysis of the deposited data

Results flagged for a closer look

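The ADM2 effect on Nmur1 pointed in opposite directions without and with IL-25. The 3 ADM2 libraries (49.95 to 62.1 CPM) were all below the vehicle libraries, and both IL-25 plus ADM2 libraries (26.6 and 31.9 CPM) were above all IL-25 libraries. The difference between the log2 changes was 0.92 ± 0.21, with an unadjusted p of 0.000611 and an adjusted p of 0.287 in edgeR, so it was not called. Over 18 alternatives the adjusted p was 0.0217 to 0.753, and the difference was called under DESeq2 (0.0217) and with no filter on low counts (0.0244). The fall with ADM2 alone was itself not called.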

How the results depend on the processing

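Of 777 log2 fold changes of single receptors under the 19 alternatives, 736 kept their direction and their side of the threshold, 4 were no longer called, 9 became called and 28 changed sign. None of the 28 was called before or after the change. The Adora2a calls and the Nmur1 falls with IL-25 held under every alternative run. With 1 library left out, calls over all genes were 1263 to 2261 for the double treatment against IL-25 (2198 with all libraries), 739 to 1926 against ADM2 (1630), 1644 to 3437 against vehicle (3042) and 0 to 6 for the difference of the ADM2 effect (5). The lowest of the first 3 came without replicate 3 of the double treatment, whose lone library is then assumed to vary like other groups. Receptors called were 1 to 3 against IL-25 and 1 to 2 against ADM2. The difference of the ADM2 effect was called for 47 genes under DESeq2, 47 with no filter, 1 under voom, 3 at a minimum count of 30 and 2 with the replicate block, and for 1 receptor (Nmur1) under DESeq2 and 1 with no filter. The cause was not tested.

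Uncalled changes that turned sign had these ranges with 1 library left out. For ADM2 against vehicle they were -0.10 to 0.36 for Gabbr1, -0.28 to 0.22 for Htr1b and -1.25 to 6.80 for Vipr1. For IL-25 against vehicle, Vipr1 gave -0.92 to 5.17. For the double treatment against IL-25, Vipr1 gave -0.98 to 2.54, Vipr2 -0.17 to 0.54 and Adora2b -1.65 to 0.062, and with the replicate block Vipr1 gave -1.68 and Htr1b -0.076. Against ADM2, Vipr1 gave -2.62 to 2.86, and 0.70 under voom. Against vehicle, Gabbr1 gave -0.34 to 0.12, Vipr1 -0.13 to 5.96 and Adora2b -0.77 to 0.94. For the difference of the ADM2 effect, Vipr2 gave -0.45 to 0.25, Htr1b -0.13 to 0.40, Vipr1 -6.01 to 2.05 and Adora2b -0.73 to 0.98; Vipr2 gave 0.16 under voom and 0.22 with the replicate block, and Htr1b -0.021 with the block.

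Upper-quartile scaling moved the share of higher calls from 55.6% to 44.6% for IL-25 against vehicle and from 44.6% to 57.4% for the double treatment against IL-25. Same-numbered libraries showed no visible shared deviation (15 pairs, r of -0.151 to 0.124), and 30 pairs with different numbers gave -0.124 to 0.151. Deviations were taken from the means of small groups, so the pairs are not independent. The check therefore cannot show whether the numbers pair samples. The block changed no call of the 8 receptors. Among the other named genes it ended 8 calls: P2ry10 with IL-25 (0.0683) and with IL-25 added to ADM2 (0.0543), P2ry1 (0.0601) and Chrne (0.0729) with ADM2, P2ry14 in the double treatment against vehicle (0.0565), Adra1b against IL-25 (0.06) and ADM2 (0.0677), and Drd1 against IL-25 (0.0995). The difference was not run on only the groups compared, since it uses all 4. Vipr1 and Chrna7 had too few counts to compare.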

Other observations

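Several ligand and transmitter genes had counts of 0 in most libraries; those named here were picked after their values were seen. Vip had 14 counts in ADM2 replicate 3 and 0 in the other 10 libraries, and that library also held the 46 counts of Vipr1. Adcyap1, the gene of the related peptide PACAP, had 12 counts in IL-25 plus ADM2 replicate 2 and 2 in replicate 3. Chat, which makes acetylcholine, Slc5a7, which takes up its precursor choline, and Slc18a3, which moves acetylcholine, were at 0 in every library.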
